A study of Rattus norvegicus with 8 samples.

Results

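Efflux pumps of the ATP-binding cassette (ABC) superfamily were described in the distal colon mucosa of rats fed quercetin, a plant flavonol, across 9 genes: Abcc1 to Abcc6, Abcb1a, Abcb1b and Abcg2. The genes were listed by family, with earlier results of these arrays known, and the probe sets were chosen by the platform annotation, as all those with 1 symbol that is a listed gene. Of 31042 probe sets 10 qualified, for 8 of the 9 genes. Where a gene had 2 probe sets, the lead was picked by the highest mean of log2(signal + 16) over all arrays, so that this mean is a description and is not tested. Abcb1b was represented by 1 probe set, which it shares with Abcb1a. Abcc3 and Abcc1 were already known from these data to differ between the diets, so their values below describe the arrays and are no independent evidence.

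Quercetin rats received 10 g of quercetin per kg of diet (4 arrays) and control rats a commercial breeder diet (4 arrays), each for 11 weeks. Mucosa was scraped from the distal colon, and total RNA was labelled with biotin and hybridised to 1-colour oligonucleotide arrays. The labels give no strain, sex or age and do not say whether an array holds 1 rat, so each p-value reflects how far these 8 samples scatter, which may be technical. MAS5 signals were deposited, a linear measure of probe set brightness, with a trimmed mean of about 200.1 on every array.

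Scrapings hold all cell layers that the glass slide removes. All 12 epithelial markers were tested, with Epcam at a signal of 16837 ± 1675 in quercetin and 19440 ± 1531 in control (SD, n = 4 each), and so were 12 of 14 markers of distal colon epithelium, among them Cdx2 and Car1, the colonic carbonic anhydrase. Of 11 markers of endothelium, where rodent P-glycoprotein is also made, 4 were tested, Pecam1, Tek, Esam and Flt1, with a median log2 fold change of -0.05. Pecam1 had a signal of 39.8 ± 14.4 in quercetin and 46.3 ± 22.7 in control (SD, n = 4 each), Kdr was below the tested range and Cdh5 had no probe set of 1 symbol. Control array 2 stood apart, with a GAPDH 3' to 5' signal ratio of 3.79 against 1.58 to 2.36 on the other 7 arrays and a mean correlation of 0.927 with the others against 0.941 to 0.955. In scraped tissue, fewer cells of a type and less RNA per cell cannot be told apart.

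ABC pumps use ATP to push compounds out of a cell. Those at the apical membrane of an enterocyte (Abcg2, Abcc2, P-glycoprotein) send drugs and conjugates back to the lumen, and those at the basolateral membrane (Abcc3, Abcc1) send them towards the blood. Flavonols such as quercetin are taken up, joined to glucuronic acid, sulfate or methyl groups and then exported by such pumps.

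The promoters of 7 of the 9 genes matched the RefSeq table by gene identifier (assembly GRCr8, 250 bases before to 50 bases after the start); those of Abcc3 and Abcc5 were not matched. A pair is shown, of Abcc1, whose signal was lower in quercetin, and of Abcc2, whose probe set was dim in both diets, because they differ in the letters recognised by the sensors of foreign compounds. Capitals mark the Ah receptor core GCGTG or its reverse complement, the nuclear receptor half-site AGGTCA or its reverse complement, and the NRF2 antioxidant response core TGACNNNGC, all searched on both strands with overlaps allowed.
Abcc1, minus strand, chr10:1162318-1162617: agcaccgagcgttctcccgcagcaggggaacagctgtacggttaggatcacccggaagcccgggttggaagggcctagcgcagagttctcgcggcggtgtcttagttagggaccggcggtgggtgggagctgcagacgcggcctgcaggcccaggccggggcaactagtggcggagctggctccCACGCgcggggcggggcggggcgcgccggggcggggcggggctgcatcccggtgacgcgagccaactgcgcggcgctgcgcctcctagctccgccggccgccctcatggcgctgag
Abcc2, plus strand, chr1:252613625-252613924: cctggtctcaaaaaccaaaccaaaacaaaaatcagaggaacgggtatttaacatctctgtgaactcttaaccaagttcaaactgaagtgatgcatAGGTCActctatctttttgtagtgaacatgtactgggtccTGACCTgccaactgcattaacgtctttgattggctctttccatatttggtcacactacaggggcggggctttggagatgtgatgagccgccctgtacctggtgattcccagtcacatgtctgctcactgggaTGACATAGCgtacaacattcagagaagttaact
The Abcc1 window holds 73.7% G and C, 5 GC boxes (GGGCGG, either strand, not in capitals) and 1 Ah receptor core. The Abcc2 window holds 44.7% G and C, 2 GC boxes, 1 antioxidant response core and 2 half-sites. Among the 7 promoters, 7 held a GC box, against 33.1% of 33469 promoters of the same length. The Ah receptor core was in 3 (29.7% of all promoters), the half-site in 1 (16.2%) and the antioxidant response core in 1 (12.1%). Besides Abcc1, the Ah receptor core was in Abcc4 and Abcg2, whose lead probe sets had log2 fold changes of 0.12 and 0.05. Any link between these letters and the signals was not tested. A match describes letters, not a bound site.

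Of the 9 genes, 6 had a lead probe set bright enough to be tested, that is, among the brightest 60% on average. None of these 6 passed limma's adjusted threshold of 0.05, where 0.0107% of the 18625 tested probe sets did. At an unadjusted p under 0.05 there were 2 of 6, Abcc3 higher and Abcc1 lower, against 10.8% of all tested probe sets. The diets did not overlap in the same 2 of 6, against 6.39%. The remaining 4 tested leads lay between -0.06 and 0.12 on the log2 scale. The median log2 fold change of the 6 was 0.02, and that of all tested probe sets was 0.01.

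**Figure D1:**
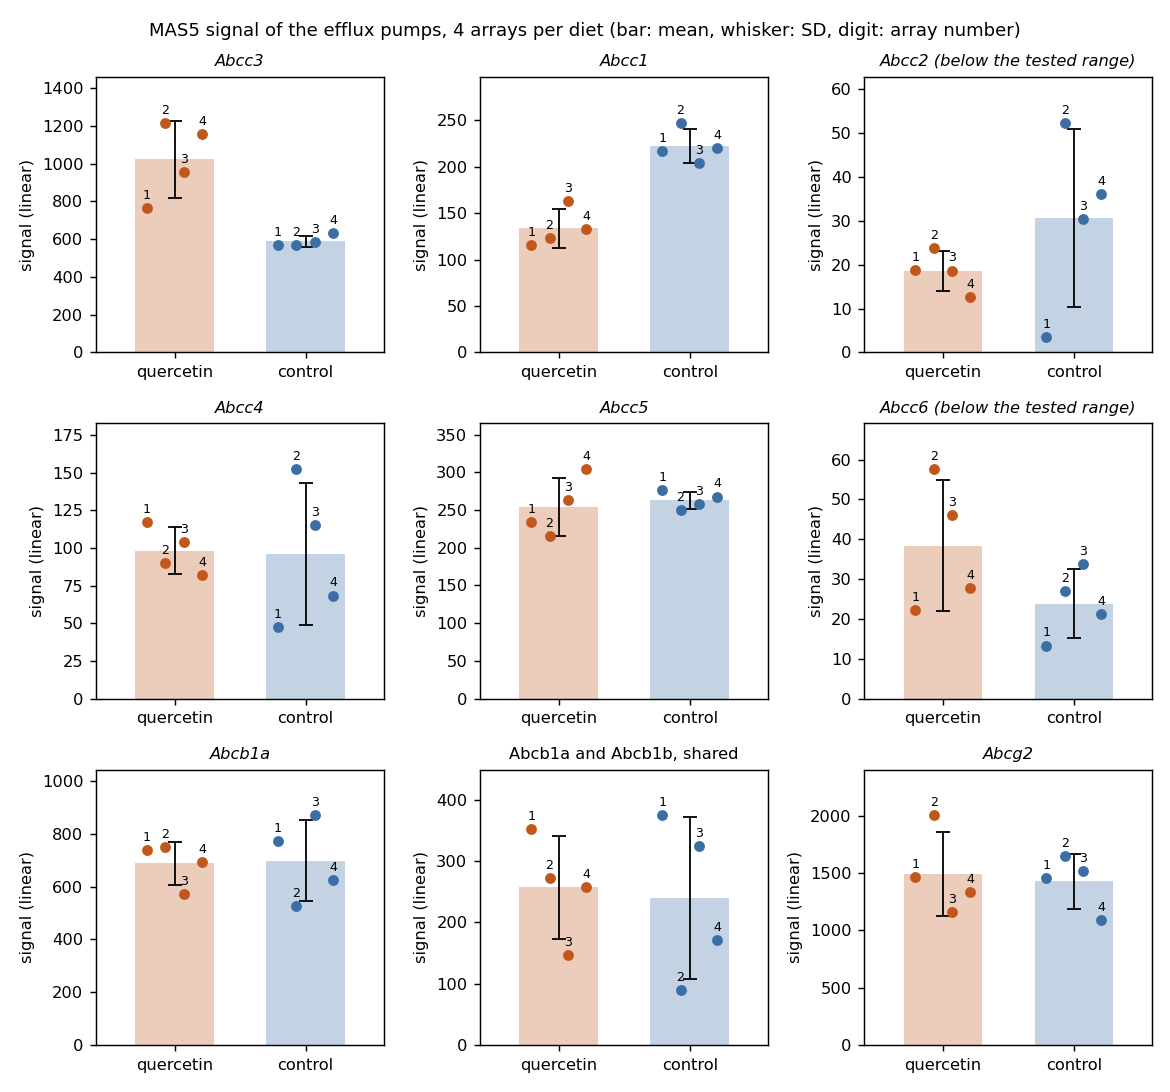
Linear MAS5 signal (y axis, from 0) of 9 probe sets in 4 quercetin and 4 control arrays (x axis): the lead of each of 8 genes and the set shared by Abcb1a and Abcb1b. Points are arrays with their number, bars are means and whiskers SD. The diets do not overlap for Abcc3 (767 and above in quercetin, 630 and below in control) or for Abcc1 (163 and below in quercetin, 204 and above in control), and overlap in the other panels.

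Abcc3 encodes MRP3, a basolateral exporter of glucuronides and bile salts. Its signal was 767, 1216, 954 and 1156 on quercetin arrays 1 to 4, against 570, 570, 587 and 630 on control arrays 1 to 4. All 4 quercetin arrays lay above all 4 control arrays. The log2 fold change was 0.76 (SE 0.155, 95% interval 0.42 to 1.09, limma adjusted p = 0.224), a level 1.69 times that of control. Quercetin array 1 was closest to the controls, and the control arrays were nearly level, with an SD of 0.0672 on the log2 scale against 0.297 in quercetin. Of all tested probe sets 3.84% had a larger absolute fold change, and by p Abcc3 was the 6th among those higher in quercetin. Abcc3 has 1 probe set, so no second one is there to compare.

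Abcc1 encodes MRP1, an exporter of glutathione conjugates and of leukotriene C4 that is made in many cell types. Its signal was 116, 123, 163 and 132 on quercetin arrays 1 to 4, against 217, 247, 204 and 220 on control arrays 1 to 4. Every quercetin array lay below every control array, with quercetin array 3 the closest to them. Its log2 fold change was -0.67 (SE 0.166, 95% interval -1.03 to -0.32, limma adjusted p = 0.26), a level 0.626 times that of control. A larger absolute fold change was found in 5.76% of tested probe sets. Abcc1 too has 1 probe set.

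Both genes were also set against the epithelial content of each array, as log2(signal + 16) minus the mean over 12 epithelial markers. This difference between the diets was 0.76 for Abcc3, with -2.60 ± 0.240 in quercetin and -3.36 ± 0.190 in control (SD, n = 4 each). It was -0.67 for Abcc1, with -5.38 ± 0.167 in quercetin and -4.71 ± 0.260 in control (SD, n = 4 each). The mean of the 12 markers differed between the diets by -0.0053, so its subtraction could move neither value much; 6 of the markers were higher and 6 lower in quercetin. The exact permutation p, two-sided, was 0.0286 for each gene, which is the smallest that 4 against 4 arrays can give. Since both genes were singled out for this contrast, that p is no independent evidence.

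Among 17 lists of cell markers, the summed signal of the tested genes separated the diets in 2. Of all tested genes, taken singly, 5.84% did not overlap between the diets, and that share is no background for sums. Smooth muscle markers (8 of 13 tested, 4 higher and 4 lower, median log2 fold change -0.05) summed to 3285 to 3716 in quercetin and 3822 to 5761 in control. The members with the largest share of that sum were Tpm1 (log2 fold change -0.32, SE 0.134) and Mylk (-0.42, SE 0.205), and the defining markers Myh11, Acta2 and Des had -0.24, 0.11 and 0.11. The other tested members of that list were Tpm2 (0.71, SE 0.366), Smtn (0.13) and Synpo2 (-0.20). Tpm2 had the largest absolute fold change of the list, opposite in sign to Tpm1 and Mylk. The smooth muscle markers Actg2, Tagln, Cnn1, Myl9 and Lmod1 were below the tested range. Macrophage and dendritic cell markers (5 of 11 tested, 3 higher and 2 lower, median 0.05) summed to 335 to 449 in quercetin and 256 to 326 in control. Within that list Lyz2 had 210 ± 64.2 in quercetin and 133 ± 21.5 in control (SD, n = 4 each). Its log2 fold change was 0.57 (SE 0.211, limma adjusted p = 0.363). The defining marker Csf1r had 0.67 (SE 0.413), and the other tested members, C1qa, Mrc1 and Aif1, had 0.04, -0.0029 and -0.39. Cd68 and Cd163 were below the tested range. The actin 3' to 5' signal ratio, a sign of RNA quality, was 7.18, 8.90, 9.12 and 6.79 on quercetin arrays 1 to 4, against 8.65, 21.4, 10.2 and 12.4 on control arrays 1 to 4. It was higher on 3 of 4 control arrays than on every quercetin array. The part of either cell type and of this ratio in the values of Abcc1 and Abcc3 was not tested.

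**Figure D2:**
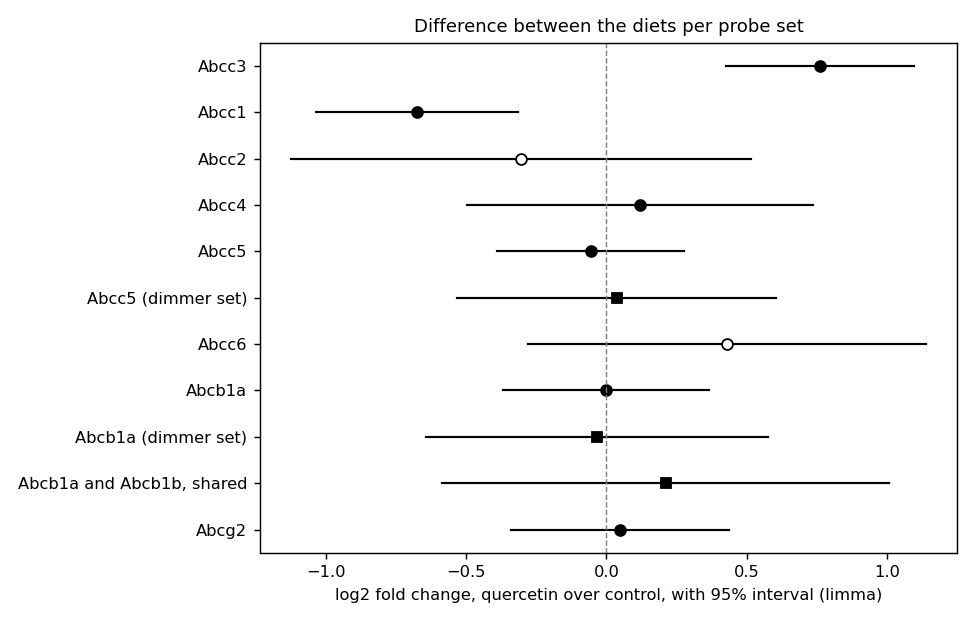
Log2 fold change of quercetin over control (x axis) with its 95% interval from limma for the 11 probe sets (rows). Circles are leads, squares are the dimmer or shared sets, and open circles are the 2 probe sets below the tested range, whose interval comes from the fit without a filter. The intervals of Abcc3 (0.42 to 1.09) and Abcc1 (-1.03 to -0.32) leave out 0 and the other 9 include it.

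Among the apical pumps, the leads of Abcg2 and Abcb1a had fold changes near 0, the set shared by Abcb1a and Abcb1b was imprecise, and Abcc2 was dim. Abcg2 encodes BCRP, an exporter of sulfate conjugates, urate and many drugs. Its signal was 1469, 2003, 1159 and 1334 on quercetin arrays 1 to 4 and 1458, 1646, 1519 and 1088 on control arrays 1 to 4. The groups overlapped through most of their range, with quercetin array 2 the highest and control array 4 the lowest. Abcg2 had a log2 fold change of 0.05 (SE 0.180, limma adjusted p = 0.952), and its 95% interval of -0.34 to 0.44 corresponds to 0.79 to 1.35 times the control level.

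Abcc2 encodes MRP2, the apical exporter of glucuronides and glutathione conjugates in liver and small intestine. Its signal was 18.8, 23.9, 18.7 and 12.7 on quercetin arrays 1 to 4, against 3.44, 52.3, 30.5 and 36.1 on control arrays 1 to 4. The mean over the 8 arrays, 5.25 on the log2 scale, lay under the lowest tested mean, 5.504, although control arrays 2 to 4 were brighter than every quercetin array. Control array 1 was the lowest, so that the controls spanned the quercetin values. Its log2 fold change was -0.30, with an interval of -1.12 to 0.51 in the fit without a filter, so a difference was not detectable at this brightness.

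Abcb1a and Abcb1b are the rodent genes of P-glycoprotein, which exports many hydrophobic drugs. The lead set of Abcb1a had signals of 739, 749, 573 and 695 on quercetin arrays 1 to 4 and of 772, 527, 870 and 626 on control arrays 1 to 4. The quercetin values all lay within the control range. This set had a log2 fold change of -0.0021 (SE 0.169, 95% interval -0.37 to 0.36, limma adjusted p = 0.998). The dimmer Abcb1a set had 447, 537, 284 and 559 in quercetin and 627, 240, 591 and 469 in control, with a log2 fold change of -0.03 (SE 0.282, 95% interval -0.64 to 0.58).

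The set shared by Abcb1a and Abcb1b cannot separate the 2 genes. It had 352, 271, 146 and 258 on quercetin arrays 1 to 4 and 374, 89.2, 325 and 171 on control arrays 1 to 4, with a log2 fold change of 0.21 (SE 0.368, limma adjusted p = 0.88). All 3 P-glycoprotein sets were lowest, of all arrays, on control array 2, and within quercetin on array 3. Those are the arrays with the highest GAPDH 3' to 5' ratio of their group, 3.79 and 2.36. With that ratio as a covariate, the SE of the shared set was 0.219 and its log2 fold change 0.05, and without control array 2 the fold change was -0.16 (SE 0.293). The part of RNA quality in these values was not tested further.

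**Figure D3:**
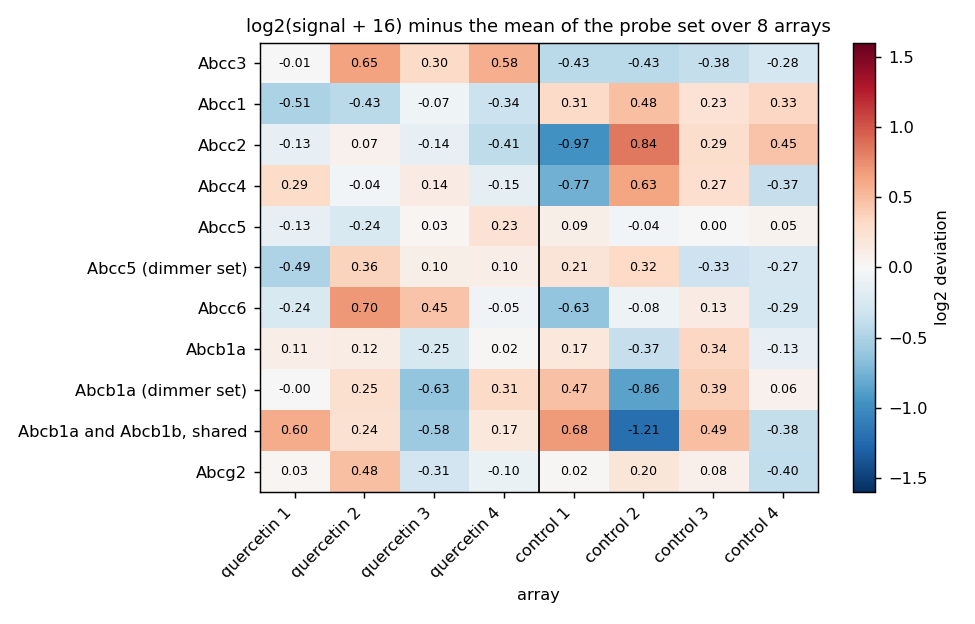
Log2(signal + 16) minus the mean of the probe set over the 8 arrays (colour and printed value), for 11 probe sets (rows) on 4 quercetin and 4 control arrays (columns). Abcc3 and Abcc1 split by diet in opposite directions, while the P-glycoprotein sets are lowest on control array 2 (-0.37, -0.86 and -1.21) and Abcc2 and Abcc4 are lowest on control array 1 (-0.97 and -0.77).

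The remaining pumps of the Abcc subfamily did not separate the diets. Abcc4 encodes MRP4, which exports cyclic nucleotides and prostaglandins. Its signal was 117, 89.8, 104 and 82.2 on quercetin arrays 1 to 4, against 47.9, 152, 115 and 68.4 on control arrays 1 to 4. The quercetin values lay inside the control range, and the SD on the log2 scale was 0.194 in quercetin and 0.627 in control. Abcc4 had a log2 fold change of 0.12 (SE 0.285, limma adjusted p = 0.921), or -0.12 without control array 1 and 0.35 without control array 2. Control array 1 was also far the lowest for markers of the crypt base and proliferation, with a mean of -1.22 relative to all arrays on the log2 scale, a list in which 9 of 12 genes were tested and all 9 were higher in quercetin (0 past limma's adjusted threshold, 3 with an unadjusted p under 0.05), where 55.9% of all 10266 tested genes were higher and 9.39% had such a p. The summed signal of those 9 was 4240 to 7213 in quercetin and 2030 to 5709 in control, and its part in the spread of Abcc4 was not tested.

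Abcc5 encodes MRP5, another exporter of cyclic nucleotides. The lead set had 234, 215, 263 and 304 on quercetin arrays 1 to 4 and 276, 250, 258 and 268 on control arrays 1 to 4. The control arrays lay within the quercetin range. The log2 fold change was -0.06 (SE 0.154, 95% interval -0.39 to 0.28, limma adjusted p = 0.932), and the dimmer set had 0.04 (SE 0.262).

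Abcc6 encodes MRP6, known for its role in liver and for the connective tissue disease pseudoxanthoma elasticum. Its signal was 22.3, 57.6, 46.1 and 27.7 on quercetin arrays 1 to 4, against 13.3, 26.9, 33.7 and 21.2 on control arrays 1 to 4. Its mean of 5.502 on the log2 scale was just under the lowest tested mean, 5.504. The groups overlapped, and the log2 fold change of 0.43 had an interval of -0.28 to 1.14 in the fit without a filter.

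By the smallest root mean square difference of centred log2 values over the 8 arrays, 5 genes were named as most like Abcc3 among 10265 compared. They were Neu1, a lysosomal sialidase (difference 0.117, log2 fold change 0.75), Endov, a nucleic acid endonuclease (0.138, 0.57), Eftud2, a spliceosome GTPase (0.144, 0.73), Tle5 (0.148, 0.55) and Prelid1, a mitochondrial lipid carrier (0.157, 0.64). The 5 most like Abcc1 were Tsc22d4 (0.111, -0.52), Slc25a25, a mitochondrial carrier of ATP and phosphate (0.129, -0.57), Crybg2 (0.133, -0.47), Mlxipl, a glucose-responsive transcription factor (0.135, -0.54) and Gpr108 (0.142, -0.53). The median difference over all genes was 0.492 for Abcc3 and 0.463 for Abcc1. Likeness was measured over the same 8 arrays, so the direction and rough size of the neighbours' fold changes follow from how they were picked. None of these genes passed limma's adjusted threshold.

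Other genes of the same pathways were followed through 8 lists, and 0 of their genes passed limma's adjusted threshold. Over all 10266 tested genes the median log2 fold change was 0.04, 55.9% were higher in quercetin and 9.39% had an unadjusted p under 0.05. Of 22 tested genes of the ABC superfamily outside the 9, not all of them transporters, 17 were higher and 5 lower, with a median of 0.19. Among the 22, 3 had an unadjusted p under 0.05, all higher. These were Tap2, the peptide transporter of antigen loading (0.99, SE 0.358, adjusted p = 0.352), Abcb8, a mitochondrial transporter (0.48, SE 0.181), and Abcf2 (0.47, SE 0.185). Cftr, the chloride channel of the family, had signals of 1250 ± 430 in quercetin and 1248 ± 622 in control (SD, n = 4 each), and was named after its values were seen.

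Of 11 tested solute carriers of drugs, bile acids and conjugates, 6 were higher and 5 lower, with a median of 0.03. Slc22a3, an organic cation transporter, had 154 ± 42.3 in quercetin and 58.4 ± 27.6 in control (SD, n = 4 each), with no overlap and a log2 fold change of 1.22 (SE 0.266, adjusted p = 0.234). Slc51a, a subunit of the basolateral bile acid and steroid carrier, had 586 ± 450.3 in quercetin and 179 ± 118 in control (SD, n = 4 each), with overlap and a log2 fold change of 1.55 (SE 0.499, adjusted p = 0.332). The third by p was Slc22a18 (0.39, SE 0.203).

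**Figure D4:**
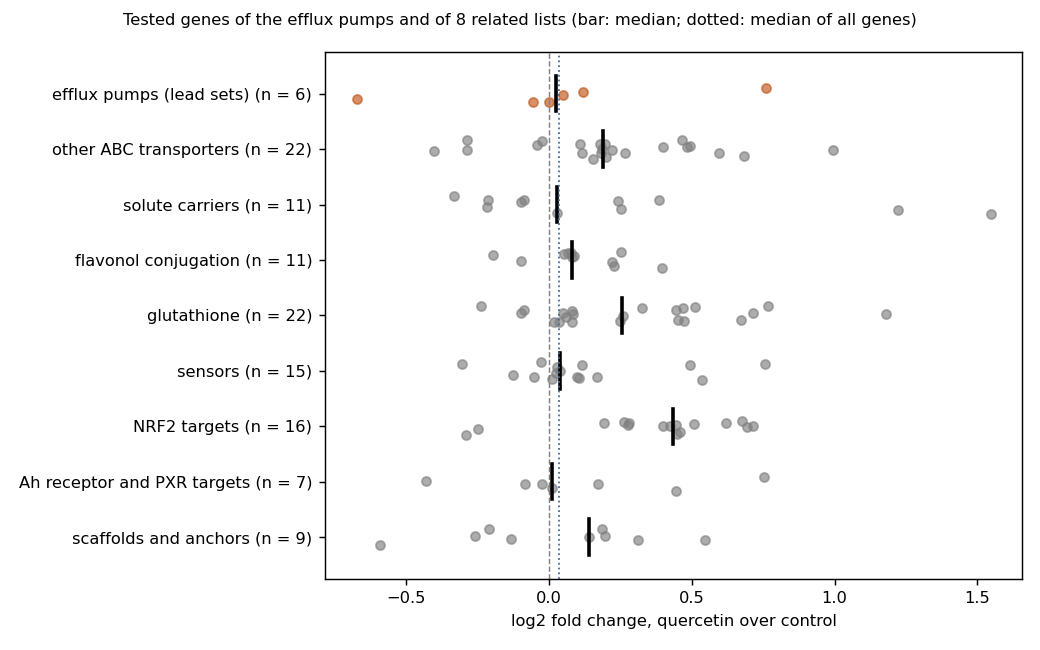
Log2 fold change of quercetin over control (x axis) for the 6 tested lead probe sets of the pumps and for the tested genes of 8 lists (rows). Points are genes, bars are medians and the dotted line is the median of all tested genes, 0.04. The list medians run from 0.01 to 0.43, and the pumps, with a median of 0.02, reach from -0.67 to 0.76.

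The list of flavonol conjugation, the step before export, had a median of 0.08, with 9 of 11 tested genes higher. Among the higher were Ugdh, Ugp2, Papss1 and Papss2 (0.05 to 0.22), which supply the donors of glucuronic acid and sulfate. Sult1a1, a phenol sulfotransferase, had -0.10 (SE 0.218). Sult2b1, a sulfotransferase, had the smallest p of the list (0.40, SE 0.170, adjusted p = 0.432), and Sult1c2 and Sult1b1 had 0.25 and -0.20. No listed glucuronosyltransferase of the Ugt1a group had a probe set of 1 symbol. Genes of glutathione supply and conjugation had 19 of 22 higher and a median of 0.25, led by Gstp1 (0.51, SE 0.174), Gsr, glutathione reductase (0.67, SE 0.233), and Gstm4 (0.45, SE 0.164).

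Among 15 tested sensors that control pump genes, 11 were higher and 4 lower, with a median of 0.04. Nr1h4, the bile acid receptor FXR, had the smallest p (0.54, SE 0.170, adjusted p = 0.317), followed by Hnf4a (-0.31, SE 0.133) and Vdr (0.76, SE 0.377). Chosen after their values were seen, the value of Nfe2l2, the gene of NRF2, was -0.13 (SE 0.155) and that of Nr1i2, the gene of PXR, 0.12 (SE 0.165). Of 16 tested NRF2 targets other than pumps 14 were higher, with a median of 0.43, and 6 had an unadjusted p under 0.05. They included catalase, Cat (0.72, SE 0.150, adjusted p = 0.23), Tkt, transketolase (0.62, SE 0.162), and Cbr3, a carbonyl reductase (0.67, SE 0.230). Relative to all arrays, the mean of this list was 0.38, 0.35, -0.042 and 0.042 on quercetin arrays 1 to 4. On control arrays 1 to 4 it was -0.17, -0.35, -0.045 and -0.16, lowest on control array 2. Quercetin arrays 1 and 2 were thus the highest, and quercetin array 3 was level with control array 3.

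Targets of the Ah receptor and of PXR other than pumps had 4 of 7 tested genes higher and a median of 0.01. Cyp3a9, an intestinal cytochrome P450, had -0.43 (SE 0.181, adjusted p = 0.422), Ces2c, a carboxylesterase, 0.75 (SE 0.336) and Nqo1, a quinone reductase, 0.44 (SE 0.279). Of the Ah receptor targets in the list, Tiparp (-0.02, SE 0.271) and Nqo1, which is also in the NRF2 list, were tested. Cyp1a1, the most inducible Ah receptor target, was too dim to be tested, as were Cyp1a2, Cyp1b1 and Aldh3a1. The median of the list therefore says little of this receptor. Proteins that anchor apical pumps had 5 of 9 higher and a median of 0.14, with Nherf1 at 0.55 (SE 0.212), Nherf4 at -0.59 (SE 0.272) and Rab11a at -0.26 (SE 0.170), and no adjusted p below 0.384.

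**Figure D5:**
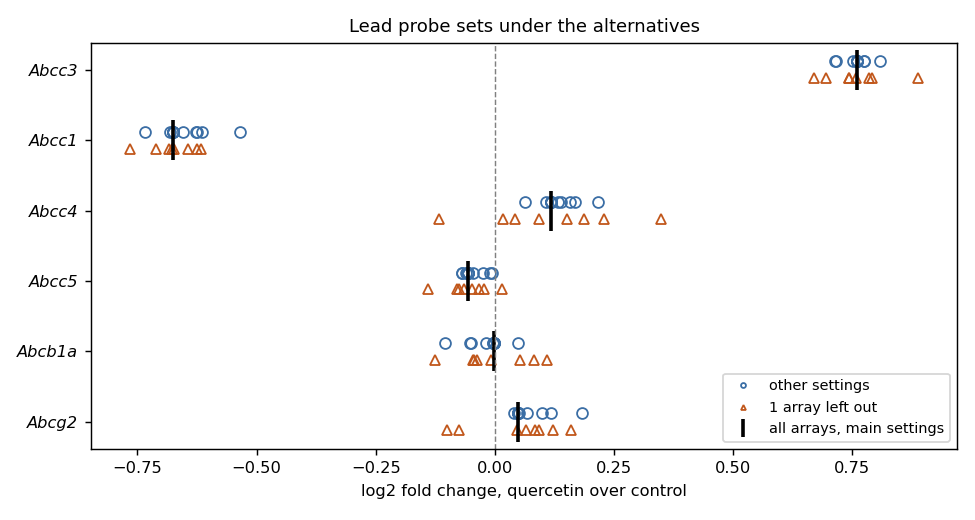
Log2 fold change of quercetin over control (x axis) of the 6 tested lead probe sets (rows) with all arrays and main settings (bar), with 1 array left out (triangles) and under other settings (circles). Abcc3 stays between 0.67 and 0.89 and Abcc1 between -0.76 and -0.54, while Abcc4, Abcc5, Abcb1a and Abcg2 lie on both sides of 0.

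Across 20 alternatives, which changed the pseudocount, the scaling, the filter, the model or the arrays used, Abcc3 kept a log2 fold change of 0.67 to 0.89 and Abcc1 of -0.76 to -0.54. Their adjusted p ran from 0.109 to 0.594 and from 0.148 to 0.594. Each had an unadjusted p under 0.05 in all 20.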

How the data were processed

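The deposited intensity values are linear MAS5 signals, 1 per probe set and array, per the submitters' processing notes. No genome build or further step is named by the labels. Titles gave each array its diet and number. The 57 array controls among 31099 probe sets were removed. The platform annotation gave 1 symbol for 20826 probe sets, and 20758 of their identifiers were found in RefSeq (GRCr8). Signals were taken to log2(signal + 16), which understates changes of dim probe sets, and the upper 60% by mean over 8 arrays were tested with limma 3.58.1 in R 4.3.3 (lmFit, eBayes with trend, two-sided, Benjamini-Hochberg over 18625 probe sets). Arrays limit the precision by their number, with a median SE of 0.222. The script was tested on simulated data, in 10 runs with 200 changed probe sets each. At the adjusted threshold it recovered 4% of added differences of 0.5 on the log2 scale and 43% of those of 1.

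The members and lists were chosen with earlier results of these data known. Named genes were all members, the 5 most like Abcc3 and Abcc1, up to 3 per pathway list by p, and markers among the first 3 of a cell list. Tpm1, Mylk, Tpm2, Smtn, Synpo2, Lyz2, Tek, Esam, Flt1, Cyp1a1, Cftr, Nr1i2 and Nfe2l2 were named after their values were seen. The same holds for Ugdh, Ugp2, Papss1, Papss2, Sult1a1, C1qa, Mrc1, Aif1 and Tiparp. It also holds for Actg2, Tagln, Cnn1, Myl9, Lmod1, Cyp1a2, Cyp1b1 and Aldh3a1. Lists were described by counts and medians.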

Additional observations from a re-analysis of the deposited data

Results flagged for a closer look

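No member's array was flagged as far from the others of its diet. Of 22 groups of 4 arrays, 0 had a gap to the nearest array above the critical share of the range. Chance gives about 1.1. With 4 arrays that gap must fill most of the range, so the check can miss large deviations. Abcc2 on control array 1 was not flagged, at 3.44 against 30.5 to 52.3 on control arrays 2 to 4.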

How the results depend on the processing

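No pump passed the adjusted threshold under any of the 20 alternatives, in which 0 to 3 probe sets of the whole table did, against 2 as reported; 0 did without control arrays 1 and 2. The signs of Abcc3 and Abcc1 held in all 20. The 4 leads near 0 changed sign in some: Abcb1a had 0.048 with median centring, and with 1 array left out the ranges were -0.13 to 0.11 for Abcb1a, -0.12 to 0.35 for Abcc4, -0.14 to 0.015 for Abcc5 and -0.10 to 0.16 for Abcg2; the cause was not tested. Relative to epithelial markers, leaving out 1 array gave 0.67 to 0.86 for Abcc3 and -0.75 to -0.55 for Abcc1, with an exact permutation p of 0.0571, the smallest that 4 against 3 arrays allow. Without control arrays 1 and 2 the values were 0.71 and -0.61 (smallest possible exact p 0.133), and with the replicate block 0.76 and -0.67 (exact p 0.125, the smallest that 4 pairs allow). The replicate block changed no call of a pump, and the fold changes under it were the same 0.76 and -0.67, with adjusted p of 0.155 for Abcc3 and 0.226 for Abcc1, and 1 probe set of the whole table passing. Same-numbered arrays did not deviate together in every pair (correlations of -0.15 to 0.16), so the numbers were not taken as pairs; 1 of 4 quercetin arrays deviated most like the control array of its own number. Array weights, median centring, the filters, the trend, the covariate and the mean of probe sets were not run for the values relative to epithelial markers. The brightness of Abcc2 and Abcc6, below the tested range, limits what these arrays show of them.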
